A study of Mus musculus with 18 samples.

Results

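RNA abundance was compared between 3 Thap1 null and 3 control clones on day 4 of differentiation, which are 6 of the 18 libraries of the series. The libraries were chosen by genotype and day alone, and no measured value entered the choice. The cells were clonal lines of mouse oligodendrocyte progenitor cells (OPCs) derived from primary neural stem cells. The control group consisted of clones D7, D3 and E8, labelled Control, and the null group of clones 3F, D6 and 7F, labelled THAP1 KO. All 6 had been in oligodendrocyte differentiation medium for 4 days with the thyroid hormone T3 at 40 µg/ml, so hormone and medium were shared by both genotypes. Each clone gave 1 library per stage, and the other 12 libraries are the same clones as growing OPCs and on day 2. The labels give neither the strain or age of the source animals, nor how the alleles were made, nor whether the clones came from separate animals. The p-values therefore measure no spread wider than that between these clonal lines. In the gene tests the day 2 and day 4 libraries of a clone entered the estimate of spread as if independent.

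Oligodendrocytes wrap axons in myelin, a membrane stack rich in cholesterol and galactolipids. Their progenitors leave the cell cycle, pass through a premyelinating stage and then switch on myelin protein genes such as Mbp and Mag, and thyroid hormone is a standard trigger of this switch in culture. Myelinating cells make most of their own cholesterol, by a pathway whose genes are switched on together by SREBP2, the product of Srebf2. THAP1 is a zinc-finger transcription factor whose mutation causes an inherited dystonia.

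Values are TPM, transcript abundances scaled to the same total in every library, summed over the protein-coding transcripts of a gene and rescaled between libraries. Changes are null minus control on the scale of log2(rescaled TPM + 1), which understates the change of low genes. Each is given with its standard error (SE) from limma where a result turns on it. A gene is said to have risen or fallen when its adjusted p was under 0.05. A gene is of unique sequence when less than 10% of its 31-base words occur in transcripts of another gene.

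The protein-coding Thap1 transcripts (ENSMUSG00000037214, GRCm38 chr8:26158141-26164151) stood at 5.43, 4.25 and 3.28 rescaled TPM in control D7, D3 and E8. In null 3F, D6 and 7F they stood at 0.667, 1.09 and 0.286. No null clone reached the lowest control, and the log2 change was -1.67 (SE 0.22, adjusted p = 0.00215). An exact two-sided permutation test on this single value gave p = 0.1, the smallest that 3 against 3 clones allow. Some signal assigned to coding transcripts remained in every null clone, and whether it was coding RNA was not tested. With all transcript types of Thap1 summed, which adds a retained-intron transcript, the difference did not pass, as given further on.

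Control D7 stood apart from the other controls before any comparison. Protein-coding transcripts held 20.8% of its TPM, against 33.95% in D3 and 38.8% in E8 and 23.9% to 26.5% in the null clones, while 1 noncoding family, Metazoa_SRP, held 59.1% in D7 and 37.6% to 51.4% elsewhere. On chromosome 11 and in astrocyte genes, described further on, D7 also differed from D3 and E8. Y-linked genes were another clone difference, with Ddx3y at 0.0692 rescaled TPM in null 3F and 11.7 to 34.2 in the other 5 clones. Eif2s3y and Uty, like Ddx3y, were low in null 3F alone. Kdm5d was low in control D3 (0.277), control E8 (0.102) and null 3F (0.0589). It measured 8.63 in D7 and 3.57 and 3.66 in null D6 and 7F. Because D7 stood apart, several results are given with and without D7.

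Of 10906 genes tested, 980 (8.99%) changed at day 4, with 550 (5.04%) higher and 430 (3.94%) lower in the null clones. The genotypes did not overlap for 28.6% of all genes tested. Of the 9313 genes of unique sequence 803 (8.62%) changed, 497 (5.34%) upward and 306 (3.29%) downward. The median change over all genes was 0.0045. The split leaned the other way in the deposited TPM without rescaling, with 69 higher and 274 lower (median change over all genes -0.15). With every library set to the same protein-coding total it was 825 higher and 377 lower. The count also rests on the day 2 libraries of the same clones, which add to the estimate of spread as if they were further clones. A fit to the 6 day 4 libraries alone called 164 genes. Leaving out null 7F left 142 calls, null 3F 181 and control E8 447, and leaving out control D7 raised the count to 1882.

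Genes of cholesterol synthesis and uptake fell. Of 24 tested genes on the list, 20 fell and none rose, against 3.94% of all genes falling, and the list's median change was -1.51. All 24 stood below 0, 22 of them without overlap between the genotypes. The fall covered regulators of the pathway and its early and late enzymes. The list was drawn up with earlier results of these clones known, so its direction is not independent evidence.

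HMG-CoA synthase, encoded by Hmgcs1, makes the first committed intermediate and was the most strongly reduced list member of unique sequence. Its levels were 185, 144 and 254 rescaled TPM in control D7, D3 and E8, and 33.5, 31.9 and 30.5 in null 3F, D6 and 7F. The null clones sat within a narrow band far below the lowest control, and the change was -2.53 (SE 0.23, adjusted p = 0.000176).

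The regulators moved with the enzymes. Srebf2 itself measured 15.9, 13.8 and 16.6 in the controls and 7.56, 6.97 and 8.60 in the null clones, a change of -0.92 (SE 0.11, adjusted p = 0.00145). The clones of each genotype lay close together, and this was the smallest standard error of the list's 24 genes. Insig1, whose product holds the SREBP precursors in the endoplasmic reticulum, measured 111, 30.5 and 65.3 against 19.4, 23.0 and 22.5, and lay at the threshold (change -1.45, adjusted p = 0.0499). Control D3 was its lowest control, yet above each null clone. Stard4, a cholesterol carrier, fell by 1.28 on the log2 scale.

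Between these ends of the pathway the mevalonate enzymes Mvk, Pmvk and Mvd changed by -1.55, -0.74 and -1.55. The sterol enzymes Sqle, Lss, Cyp51, Nsdhl, Sc5d and Dhcr7 changed by -1.51, -1.33, -1.53, -1.53, -0.80 and -0.93, and all passed the test. Sc4mol, the older symbol of the sterol oxidase Msmo1, changed by -1.73. Idi1, Fdps, Fdft1 and Tm7sf2 fell too (-2.60, -1.99, -1.98 and -1.51), but share sequence with other genes and are uncertain. Among the 4 genes that did not pass were Hsd17b7, Ebp and Acat2, with changes of -1.32, -1.10 and -1.47. In Hsd17b7 the groups overlapped.

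The fall was also seen without control D7, which had the highest level of several members. Without D7 15 of the genes fell and none rose, with a list median of -1.29, and in the 6 libraries alone 9 fell. Leaving out null 7F left 6, null 3F 11 and control E8 10, with 0 rises in each. At day 2 the median was -0.81, and 4 members fell. The day 2 and day 4 differences of Hmgcs1 (-1.16 and -2.53) did not differ by the test of that difference (adjusted p = 0.33).

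**Figure D1:**
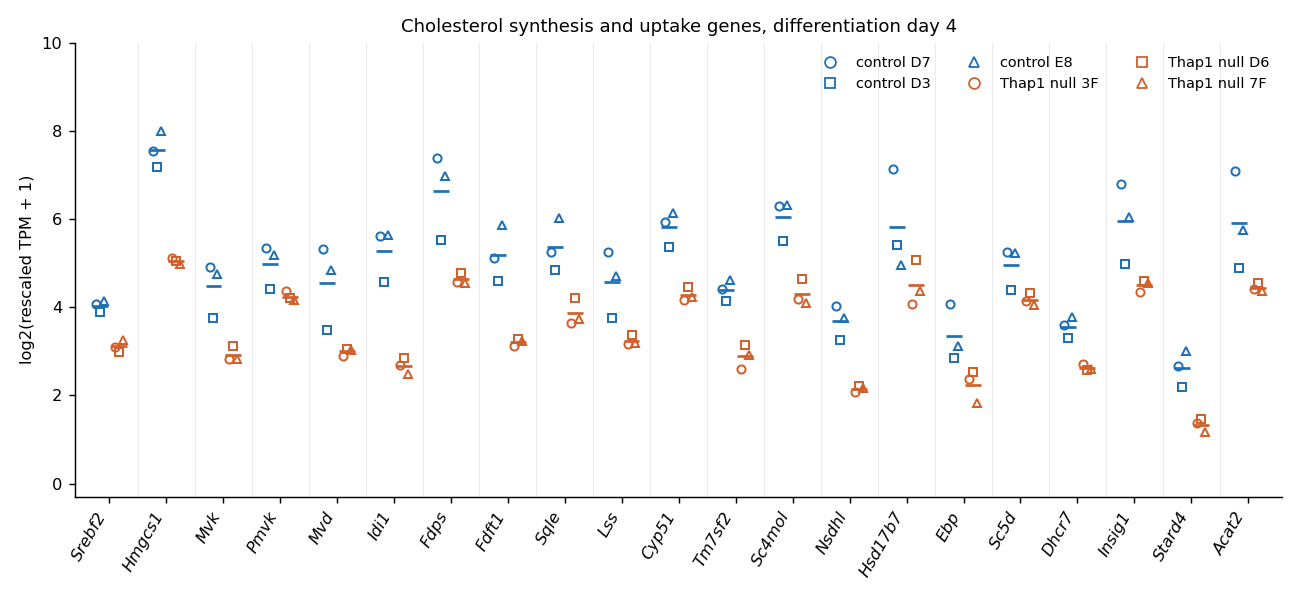
Levels of 21 of the tested cholesterol genes in the 6 day 4 libraries, as log2(rescaled TPM + 1), with 1 symbol per clone and a bar at the mean of each genotype (blue control, orange Thap1 null). The null clones of Hmgcs1 sit together at 30.5 to 33.5 rescaled TPM, below the controls at 144 to 254, and each of the 21 genes shown has the lower mean in the null clones.

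SREBP proteins bind sterol regulatory elements in promoters, so the 250 bases before the annotated start of Hmgcs1 are shown from RefSeq on GRCm38.p6, chr13:119690101-119690350, plus strand. The capitals mark the only match on either strand to the element TCACNCCAC, which begins 137 bases before the start.
Hmgcs1: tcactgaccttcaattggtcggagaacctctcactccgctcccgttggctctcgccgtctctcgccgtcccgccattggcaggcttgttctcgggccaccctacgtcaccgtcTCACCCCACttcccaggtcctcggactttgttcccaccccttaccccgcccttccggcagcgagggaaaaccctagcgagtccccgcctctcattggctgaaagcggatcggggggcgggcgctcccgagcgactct
The element was found in 1.05% of 32851 RefSeq windows of this length, and in 1 of the 17 cholesterol genes with a window, which is Hmgcs1. A match describes letters and not binding.

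Few structural myelin genes passed the test. Of 18 tested, 4 fell (Mbp, Mobp, Ermn and Gpr37), none rose and 14 did not pass the test, against 3.94% of all genes falling, with a median change of -0.98. RNA of the list members Mag and Cldn11 was present in every clone, at 98.9 rescaled TPM or more and 633 or more. Mobp was low in the null clones, as given below, and cell identity was not tested.

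Mbp, the basic protein that compacts myelin, measured 6881, 1319.5 and 945 rescaled TPM in control D7, D3 and E8 and 124, 811 and 175 in null 3F, D6 and 7F. The groups did not overlap, but null D6 came close to control E8, and the control mean rests largely on D7. The change was -2.97 (SE 0.80, adjusted p = 0.0431), and -2.09 without D7 (adjusted p = 0.065). Mobp, a second compact-myelin protein, measured 54.0, 6.03 and 4.95 against 0.0938, 1.52 and 0.0448. Its change was -3.21 (SE 0.69, adjusted p = 0.0204) and remained past the threshold without D7 (-2.23, adjusted p = 0.0042). Gpr37, a receptor of maturing oligodendrocytes, changed by -2.17 with D7 and by -1.33 without it, and both passed. Ermn, a cytoskeletal protein of late oligodendrocytes, changed by -1.68, and without D7 its mean was too low for testing.

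Of the 18 tested myelin genes 10 did not overlap between the genotypes, against 28.6% of all genes tested. Mag and Mog did overlap. Mag, an adhesion protein facing the axon, measured 780, 161 and 146 in the controls and 107, 169 and 98.9 in the null clones (change -1.11, adjusted p = 0.184). Mog, a surface protein of late oligodendrocytes, measured 227, 17.4 and 47.5 against 6.49, 17.5 and 7.49 (change -2.48, adjusted p = 0.0937). In both genes D7 was several times above D3 and E8, while the null clones lay near the lower controls or, for Mog, mostly under them.

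Without D7 the list divided: 3 genes were lower, Mobp and Gpr37 among them, and Cldn11, Gjb1 and Gjc3 were higher in the null clones. Cldn11, the tight-junction protein of myelin, measured 2399 in D7 but 867 and 633 in D3 and E8, against 1323, 1434 and 1288 in the null clones. Over the list's genes still tested the median was then -0.19. In the 6 libraries alone, and without null 3F or null 7F, no myelin gene passed.

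Regulators and stage markers gave a mixed picture. Among 18 tested transcription factors of oligodendrocyte differentiation 2 fell and none rose, against 3.94% of all genes falling and 8.99% changing. None of them passed without null 3F or null 7F. Olig1, a bHLH factor of the lineage, measured 200, 307 and 299 in the controls and 65.9, 101 and 81.6 in the null clones (change -1.68, SE 0.34, adjusted p = 0.0166). It was below the lowest control in every null clone. Tcf7l2, a Wnt-pathway factor of newly forming oligodendrocytes, changed by -1.31 (adjusted p = 0.0329). Myrf, the factor that switches on myelin genes, measured 21.7, 13.4 and 5.73 against 6.40, 7.81 and 6.70 (adjusted p = 0.193), and Sox10, the lineage factor upstream of it, 159, 124 and 72.4 against 108, 99.9 and 110 (adjusted p = 0.875). None of 14 premyelinating genes passed, with Gpr17, a receptor of that stage, at 94.5, 126 and 91.2 against 172, 124 and 166 (change 0.56, adjusted p = 0.0886).

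Among 17 mature oligodendrocyte genes 3 fell, against 3.94% of all genes falling: the carbonic anhydrase gene Car2 (-2.50), Qdpr (-1.24) and Trf. Trf, the iron carrier transferrin, measured 87.4, 61.9 and 155 against 5.50, 8.36 and 3.51 (change -3.87, adjusted p = 0.000163), but shares sequence with another gene and is uncertain. Of 17 OPC markers Rgcc rose and Olig1 fell, near the 8.99% of all genes that changed. Without control D7 1 rose and 8 fell, while the calls over all genes went from 980 to 1882. Pdgfra, the growth factor receptor of OPCs, measured 10.1, 70.8 and 72.6 against 10.8, 27.5 and 14.1 (adjusted p = 0.331, and 0.0381 without D7), and Cspg4, the NG2 proteoglycan, 2.25, 5.77 and 8.92 against 6.49, 8.30 and 5.49 (adjusted p = 0.561).

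The control clones differed widely in several genes, astrocyte genes among them. The 8 genes of unique sequence with the widest range over the controls, a description with no test, were Gfap, Mlc1, Apoe, Mt3, Clu, Sparcl1, Stom and Slc1a3. Gfap, the astrocyte intermediate filament, measured 0.256 rescaled TPM in control D7, 148 in D3 and 341 in E8, and 120, 114 and 197 in the null clones. Apoe, the main lipid carrier made by astrocytes, measured 2.24, 203 and 412 against 13.6, 20.6 and 40.7, and the glutamate transporter Slc1a3 0.440, 37.2 and 105 against 4.58, 11.4 and 7.19. For each of the 8, D7 was the lowest of all 6 libraries. The null clones lay between D7 and the other controls, except for Gfap in null 7F, which lay between D3 and E8.

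Summed over 16 astrocyte markers the level was 143 rescaled TPM in D7, 831 in D3, 1281 in E8 and 745 to 867 in the null clones. Of 13 tested markers Cd44 rose and the others did not pass. The median change was 0.66 with all clones and -0.69 without D7, when Slc1a2, Slc1a3, Aqp4 and Sparcl1 were lower. In these bulk libraries fewer cells of a type and less RNA per cell cannot be told apart. The part of astrocyte RNA in the myelin and cholesterol differences was not tested. Markers of neurons (4 of 16 tested), microglia (1 of 12), mesenchymal and vascular cells (1 of 14) and Schwann cells (2 of 10) were mostly too low to test, and their sums reached at most 199, 6.71, 12.8 and 12.9 rescaled TPM in any library. Among them the microglial receptor gene P2ry12 rose by 1.29, and Pmp2, which shares sequence, changed by -1.49. None of 8 tested neural stem cell markers passed, with sums of 153 rescaled TPM in D7, 974 in D3, 1333 in E8 and 387 to 447 in the null clones. Without D7 5 of them fell, with a median change of -0.84.

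**Figure D2:**
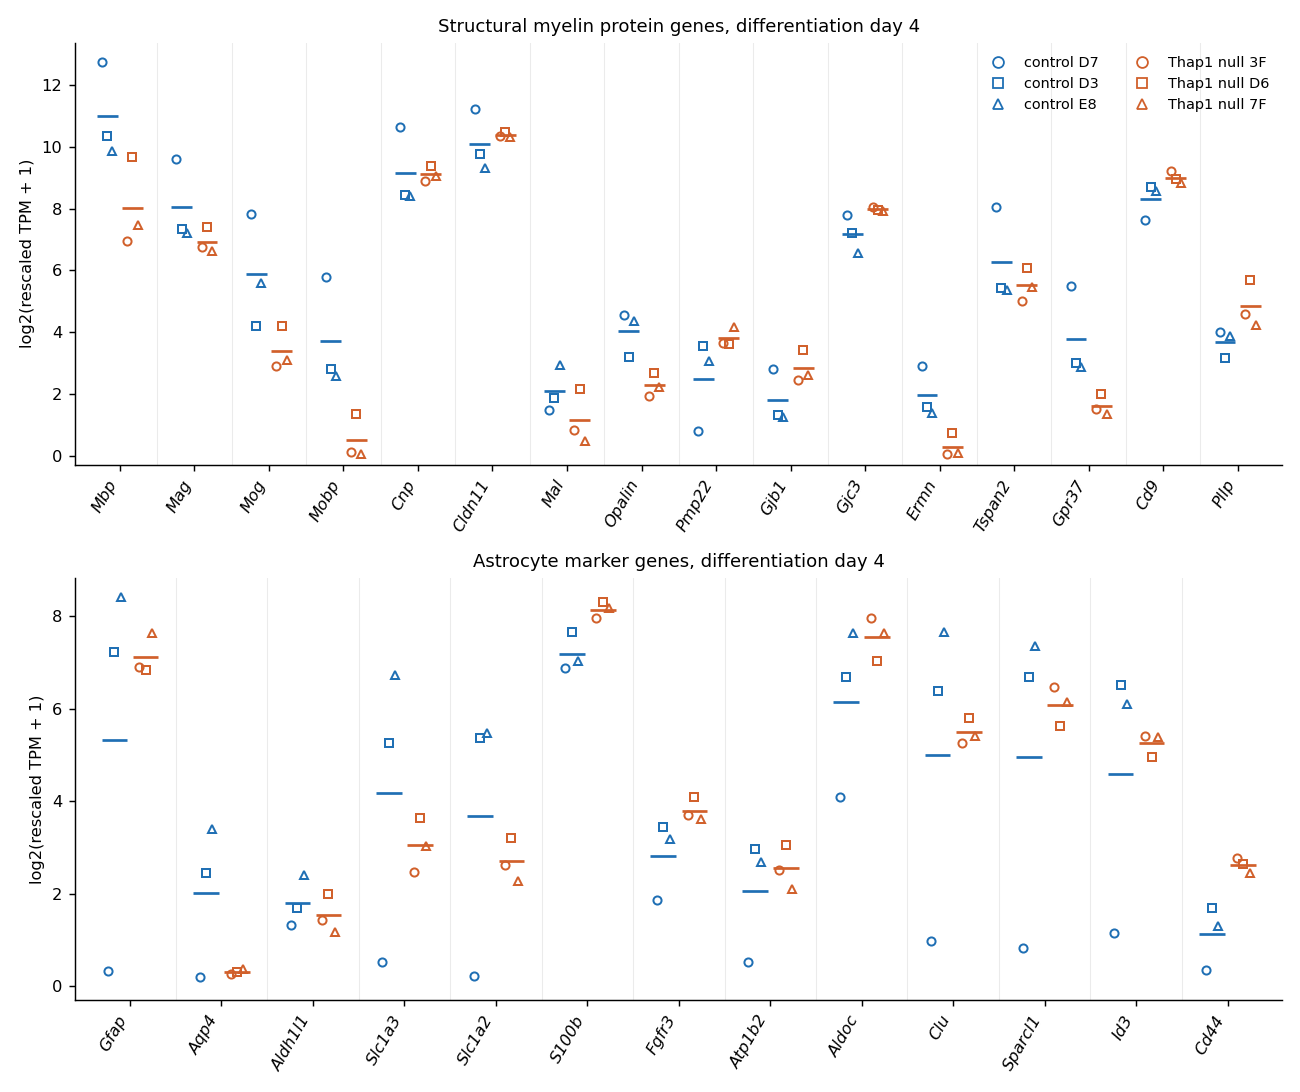
Levels of 16 of the tested structural myelin genes (upper panel) and astrocyte markers (lower panel) in the 6 day 4 libraries, as log2(rescaled TPM + 1), with 1 symbol per clone and a bar at the mean of each genotype. Control D7, the blue circles, is high for Mbp (6881 rescaled TPM) and Mag (780) and lowest for Gfap (0.256), apart from the other 2 controls.

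Some genes were nearly lost. By the rule of the 15 largest falls among 229 reduced genes of unique sequence without overlap and with a mean of at least 5 rescaled TPM, the first was Ech1, a peroxisomal and mitochondrial enzyme of fatty acid oxidation (ENSMUSG00000053898, GRCm38 chr7:28825217-28832247). It measured 49.2, 28.6 and 41.3 rescaled TPM in the controls and 0.0749, 0.116 and a listed 0 in null 3F, D6 and 7F. The change was -5.23 (SE 0.19, adjusted p = 1.03e-07) and -5.25 at day 2. Cln3, a lysosomal membrane protein mutated in a childhood neurodegenerative disease (chr7:126571207-126585817), measured 15.001, 8.84 and 7.58 against 0.0201, 0.0336 and 0.0225. Its change was -3.43 (SE 0.20, adjusted p = 5.66e-06). Both were near 0 in every null clone and clearly present in every control.

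Gusb, the lysosomal beta-glucuronidase that trims glycosaminoglycans (chr5:129989011-130003049), measured 9.69, 5.23 and 6.56 against 0.248, 0.0958 and 0.361, a change of -2.69 (SE 0.24, adjusted p = 0.000176). Of the 14 tested glycosaminoglycan-degrading enzymes, Gusb and Ids, the iduronate sulfatase, fell (Ids by 0.87) and the other 12 did not pass, with a median change of 0.014. Over all genes 3.94% fell. Without control D7 4 of the list rose and 3 fell, while the calls over all genes went from 980 to 1882. Fam73a, an outer mitochondrial membrane protein gene now named Miga1, measured 16.7, 10.01 and 6.43 against 0.342, 0.208 and 0.261 (change -3.16, adjusted p = 0.000124). Lrrc16a, an actin regulator gene now named Carmil1, changed by -3.05, and Bfsp2, known as a lens filament protein, by -2.80.

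In other large falls the null clones differed among themselves. Txndc15 measured 0.582 and 0.200 in null 3F and 7F but 5.40 in D6. Scg5, a chaperone of neuropeptide processing, was listed at 0 in 3F and measured 0.393 in D6 and 6.71 in 7F. Grm7, a metabotropic glutamate receptor (-2.89), Lpar1, a lysophosphatidic acid receptor (-2.54), and Dusp23 (-2.50) completed the set with Hist1h1b, Mobp, Mbp, Hmgcs1 and Car2.

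THAP1 is known to bind a core of the form TNNGGCA. The 250 bases before the start of Gusb (RefSeq, GRCm38.p6, chr5:130003050-130003299, minus strand) and of Bfsp2 (chr9:103449177-103449426, minus strand) are shown as examples with their matches in capitals. Both genes were reduced in all 3 null clones on both days. Cln3, which also passed the test at both days, holds a match too and is not shown. The match lies on the strand shown in Gusb and on the other strand in Bfsp2.
Gusb: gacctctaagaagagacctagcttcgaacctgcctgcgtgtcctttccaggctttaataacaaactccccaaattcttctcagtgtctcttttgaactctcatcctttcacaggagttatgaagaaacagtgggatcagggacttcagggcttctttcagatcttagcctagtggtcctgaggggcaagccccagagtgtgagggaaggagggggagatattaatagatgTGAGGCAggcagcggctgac
Bfsp2: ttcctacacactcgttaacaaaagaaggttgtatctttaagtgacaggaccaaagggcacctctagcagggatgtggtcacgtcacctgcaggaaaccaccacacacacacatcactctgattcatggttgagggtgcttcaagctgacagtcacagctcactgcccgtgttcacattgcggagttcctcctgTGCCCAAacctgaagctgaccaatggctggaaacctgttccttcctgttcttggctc
The core occurs in 34.7% of all windows, searched on both strands, and in 7 of 11 with a window among the 15 largest falls and Gusb. So common a word describes the sequence and not a binding site, and these genes were chosen for their change.

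Among 345 raised genes that met the same rule, Anxa6, a calcium-dependent membrane-binding annexin (chr11:54979108-55033445), had the largest rise. It measured 0.0856, 0.883 and 1.03 rescaled TPM in the controls and 46.2, 44.6 and 60.6 in the null clones, a change of 4.99 (SE 0.33, adjusted p = 1.53e-05) and 5.44 at day 2. Sparc, a secreted matrix glycoprotein, measured 3.15, 25.1 and 31.1 against 180, 171 and 191 (change 3.59, adjusted p = 0.0175). Nupr1, a stress-induced nuclear protein, measured 0.0574, 4.04 and 1.92 against 26.9, 22.3 and 27.2 (change 3.40, adjusted p = 0.00154). Plin2, which coats lipid droplets, measured 0.0775, 2.11 and 1.39 against 13.9, 10.9 and 12.5 (change 2.74, adjusted p = 0.00192). In all 4 the null clones agreed closely while D7 was the lowest control.

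The other rises by this rule ranged from 2.92 for Mfge8 to 2.15 for Tmem117, which measured 3.84, 6.69 and 8.05 against 28.8, 31.3 and 29.5. They include Efcab1, Col18a1, Ttyh2, Mgp, Capn6, Trib3, Pycr1 and Irgm1. Of the 15 rises 5 lie on chromosome 11 (Anxa6, Sparc, Ttyh2, Pycr1 and Irgm1), where control D3 and E8 were lower over most of the chromosome, as given further on. The part of that shift in these 5 rises was not tested.

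**Figure D3:**
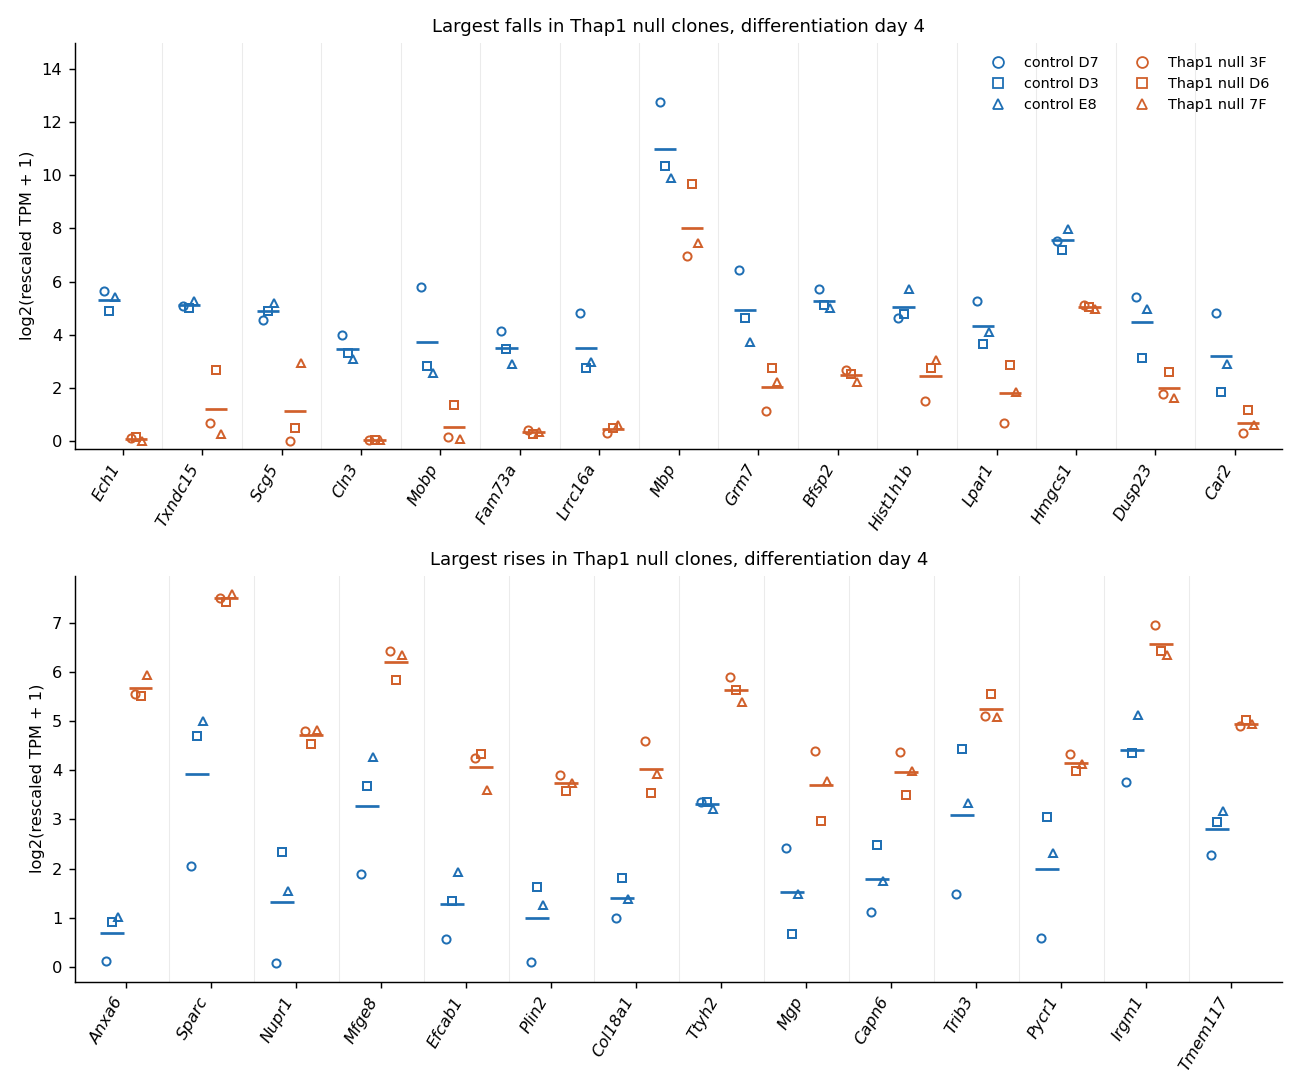
Levels of the 15 genes with the largest falls (upper panel) and 14 of the 15 with the largest rises (lower panel) by the stated rule, as log2(rescaled TPM + 1) in the 6 day 4 libraries, with 1 symbol per clone and a bar at the mean of each genotype. Ech1 and Cln3 lie near 0 in the 3 null clones, and Anxa6 near 0 to 1 in the controls and above 5 in the null clones.

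Several matrix genes rose. Of 15 tested collagens, laminins and other matrix genes 5 rose and none fell, against 5.04% of all genes rising (median change 0.84). Col9a3 and Col11a2, chains of cartilage-type collagens, changed by 1.99 and 1.93, Col18a1, a basement membrane collagen, by 2.63, Col11a1 by 0.81 and Sparc by 3.59. Col11a2 measured 8.28, 9.21 and 6.55 in the controls and 33.0, 32.6 and 33.4 in the null clones, which agreed closely. Without D7 4 rose, Col11a1 no longer among them, and Col4a1 fell. Acan, the cartilage proteoglycan aggrecan, measured 0.0109, 0.330 and 0.185 against 5.20, 4.33 and 2.24 (change 2.02, adjusted p = 0.00139) and was the member of 13 chondroitin sulfate proteoglycan genes that changed. That 1 of 13 is near the 8.99% of all genes that changed. Without D7 1 of the 13 rose and 3 fell.

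Some stress-response genes rose. Of 28 tested genes of the unfolded protein and integrated stress responses 6 rose and none fell, against 5.04% of all genes rising (median change 0.44). They were Trib3, a pseudokinase induced by ATF4 and CHOP (2.16), Herpud1 (1.48), Shmt2, a mitochondrial one-carbon enzyme (1.37), Ddit3, which encodes CHOP (1.07), Ppp1r15a (0.94) and Xbp1 (0.64). Xbp1 lies on chromosome 11 and Herpud1 on chromosome 8 past 80 Mb, regions where clones differed in level, as given further on. The part of those shifts in these 2 rises was not tested. Ddit3 measured 13.4, 28.0 and 17.0 in the controls and 34.3, 50.1 and 37.8 in the null clones. The endoplasmic reticulum chaperone Hspa5 measured 76.7, 54.2 and 106 against 87.3, 72.7 and 77.3 (adjusted p = 0.906), with overlapping groups. Control D7 was low for several members: Chac1 measured 1.19 in D7, 61.8 and 30.4 in D3 and E8 and 67.8 to 80.2 in the null clones (adjusted p = 0.157). Without D7 7 rose, and no gene of the list passed in the 6 libraries alone, in the deposited TPM, or without null 3F or null 7F.

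Genes of the p53 pathway changed in both directions. Of 20 tested 6 fell and 2 rose, against 3.94% and 5.04% of all genes (median change -0.60). Trp53inp1 measured 15.1, 19.8 and 24.7 in the controls and 6.27, 8.19 and 7.19 in the null clones (change -1.32, adjusted p = 0.00248). Phlda3, an inhibitor of AKT, changed by -2.03, Ccng1, cyclin G1, by -1.17 and Zmat3 by -0.77. The death receptor gene Eda2r measured 1.33, 9.15 and 14.5 against 0.0307, 0.0941 and 0.119 (change -2.73, adjusted p = 0.0322). Bax, the pore-forming death effector, changed by -0.81 but shares sequence. Trp53 itself rose, at 9.07, 8.61 and 7.48 against 21.1, 18.6 and 20.6 (change 1.17), with shared sequence and a place on chromosome 11, and Gadd45a rose by 0.51. The classical targets Cdkn1a (0.53, adjusted p = 0.305) and Mdm2 (-0.12, adjusted p = 0.662) did not pass. Without D7 11 fell and 1 rose, and in the 6 libraries 1 fell and 1 rose.

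**Figure D4:**
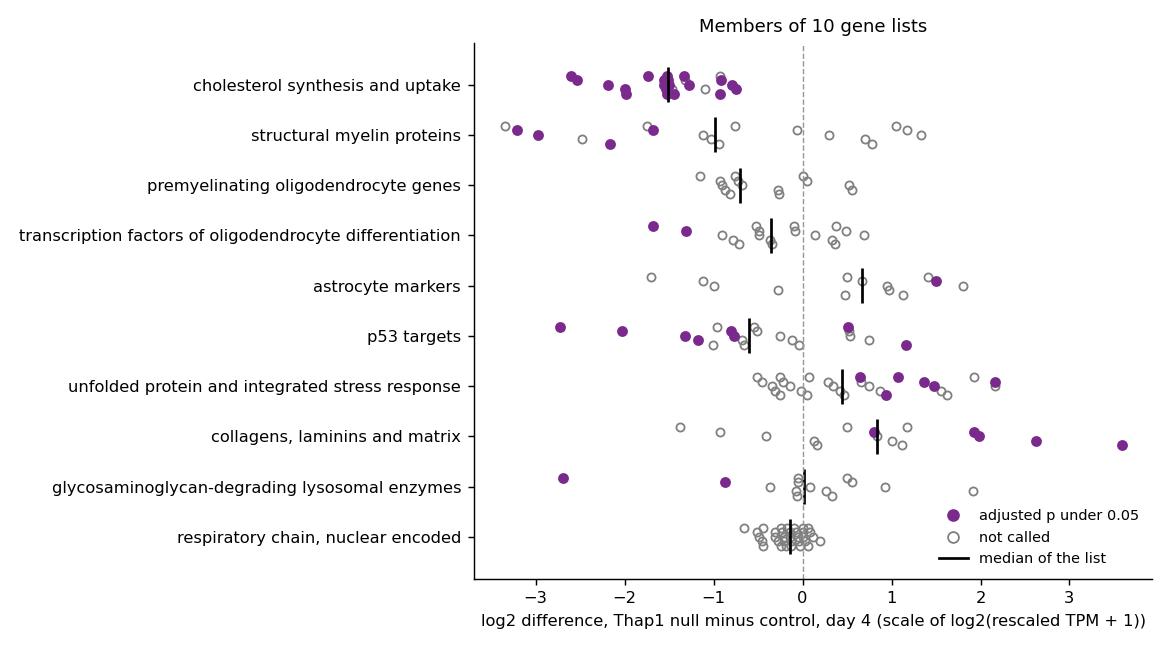
Change of every tested member of 10 gene lists at day 4, null minus control on the log2(rescaled TPM + 1) scale, filled where the adjusted p was under 0.05, with a bar at the list's median. The cholesterol genes lie wholly below 0 with a median of -1.51, the myelin genes lie on both sides of 0 with a median of -0.98, and no respiratory chain gene passed with all clones.

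The other lists held 0 to 6 changes each, and their counts are read against 8.99% of all genes changing. Of 23 mitosis genes Bub1b, Kif11 and Pttg1 fell, and all 23 changes were below 0 (median -0.56). At day 2 3 of these genes rose, with a median of 0.83. No mitosis gene passed at day 4 in the 6 libraries alone or without control E8, null 3F, null D6 or null 7F. None of 20 DNA replication genes passed. Of 13 lysosomal genes in a list not limited to sphingolipid-degrading enzymes, Gaa (1.13) and Gm2a (1.17) rose, both on chromosome 11. Of 31 proteasome genes Psmb5 fell, a catalytic subunit that shares sequence and is uncertain (97.9, 81.8 and 98.9 against 41.5, 33.6 and 39.2). Of 12 thyroid hormone receptor and target genes Rxrg rose (1.88) and 1 gene fell. Of 12 potassium channel genes Kcna1 (1.37) and Kcnk1 (1.47) rose, and of 16 glutamate and GABA receptor genes Grm7, Grik3 and Gabbr1 fell. Slc2a1, the glucose transporter of the blood-brain barrier, measured 7.70, 6.37 and 7.81 against 18.5, 15.4 and 14.5 (change 1.04, adjusted p = 0.00366).

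With all clones no gene passed among 34 respiratory chain genes (8 fell without control D3), where Ndufb5 had the lowest adjusted p (0.108), or among 12 THAP family and partner genes, where it was Tor1a, mutated in another dystonia (12.6, 13.2 and 12.9 against 10.04, 11.1 and 8.35, adjusted p = 0.119). Of 20 genes in a mixed list of galactolipid, sphingolipid and fatty acid synthesis 1 fell, Ppap2b (-1.16), a lipid phosphatase gene now named Plpp3. The cholesterol list and this mixed list gave 20 of 24 and 1 of 20 falls. The difference between these lists was not tested. Without control D7 4 genes of the mixed list rose and 3 fell. None of its genes passed in the 6 libraries, in the deposited TPM or with any other single clone left out.

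The remaining lists are read against the same 8.99% of all genes changing. Hey2, a Notch effector, rose by 1.91. Without control D7 1 gene of its list of 21 Notch, BMP and Wnt genes rose and 7 fell. Ephb1, an ephrin receptor, changed by -1.84. Ncam1 and Cntnap1 rose by 0.60 and 0.69 among 19 axon contact genes. Of 14 tested immediate early genes (21.4% called) Fos and Dusp1 rose by 1.52 and 1.34 and Arc changed by -1.97. Of 12 tested interferon and antigen presentation genes (25% called) Irf1 and Gbp3 rose by 0.69 and 0.998. B2m, the light chain of class I antigen-presenting molecules, changed by -1.31. The iron transporter gene Slc39a14 rose by 1.60, the tubulin gene Tubb4a of the dystonia list changed by -1.57 and the CDK inhibitor gene Cdkn2d by -0.60. Of 28 chromatin regulators Ezh1 and Hdac1 rose by 0.75 and 0.44 and Chd7 changed by -0.49. Cntnap1, Irf1 and Ezh1 lie on chromosome 11, where the median change was 0.37, as given further on. Glycolysis and hypoxia genes gave 2 rises and 4 falls among 21 (28.6% called), above the share of all genes. In the 6 libraries alone, and in the deposited TPM, 1 of them passed.

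Chromosome 11 differed by clone. Of 884 tested genes there 145 (16.4%) changed, 140 upward, against 5.82% to 13.4% on the other chromosomes tested, and the median change was 0.37. The median deviation from the 6-library median was -0.37 in control D3 and -0.37 in control E8, but -0.0009 in control D7 and 0.07 to 0.13 in the null clones. Thus 2 of the 3 controls had the lower median, while D7 lay nearer to the null clones. In windows of 10 Mb the shift was absent from 10 to 20 Mb, where D3 and E8 stood at -0.05 and -0.04 and null 7F at -0.04, and from 30 to 40 Mb D7 stood at -0.21. The deviations of D3 and E8 were similar at day 2 (-0.33 and -0.31). Without chromosome 11, 835 genes changed, 410 upward and 425 downward. On chromosome 8 from 80 Mb onward, null 3F and 7F deviated by 0.25 and 0.22 and null D6 by -0.04.

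**Figure D5:**
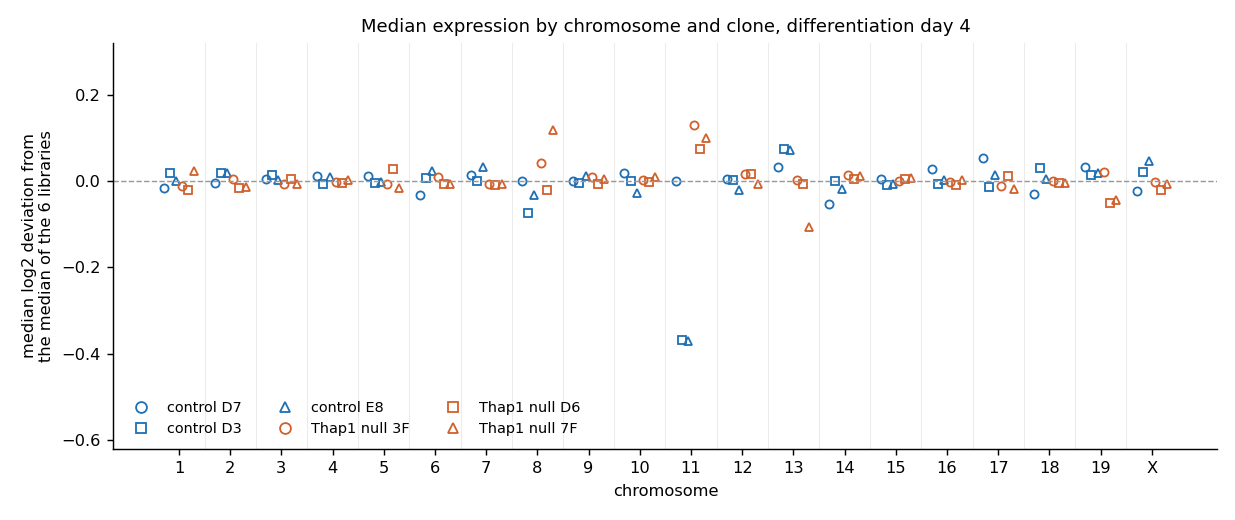
Median, over the tested genes of each chromosome, of each library's log2 deviation from the median of the 6 day 4 libraries, with 1 symbol per clone. Control D3 and E8 stand at -0.37 on chromosome 11, while control D7 lies at -0.0009 and the 3 null clones lie at 0.07 to 0.13.

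At day 2 the same clones gave 518 called genes (4.75%), 300 higher (2.75%) and 218 lower (2%), of which 275 were called in the same direction at day 4 and 2 in the opposite one. The day 4 and day 2 comparisons use the same clones, so this overlap is a description. Ech1, Cln3, Gusb, Fam73a, Bfsp2, Anxa6 and Plin2 passed the test at both days. A test of the difference between the days called 1 gene of 10906 (0.00917%), the histone gene Hist1h2ae, and 1017 at an unadjusted p under 0.05. That fit did not pair the libraries of a clone. With clones as a fixed replicate block no gene was called, and with a random replicate block 23 were. Hist1h2ae shares sequence with other histone genes. It measured 9.22, 10.6 and 12.2 in the controls and 1.61, 1.94 and 2.63 in the null clones at day 4 (change -1.94), while at day 2 the change was 0.83. Below it in that test were Sh3bp5, a mitochondrial signalling adaptor (1.19 at day 4, -0.38 at day 2, adjusted p = 0.081 for the difference), and Pls3, an actin bundler (-0.42 and 0.73, adjusted p = 0.081).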

How the data were processed

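Total RNA from clonal OPC lines was made into stranded, ribosomal-RNA-depleted libraries, per the labels' protocols. The authors deposited TPM per transcript for 93666 transcripts, each library summing to 1000000, together with a transcript length in an unstated other unit that was not used. The submitters' processing notes name STAR, Picard and mm10 without roles. TPM keeps no depth, so no counting error or detection floor can be given, and precision rests on 3 clones per genotype.

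TPM was summed by gene name over protein-coding transcripts (22305 genes) and rescaled by median of ratios over the 12 day 2 and day 4 libraries (factors 0.655 to 1.40). Day 0 was left out because protein-coding transcripts held only 5.05% to 9.00% of the control TPM there. Genes with a mean of at least 1 rescaled TPM over the 6 day 4 libraries were tested with limma 3.58.1 (R 4.3.3) on log2(rescaled TPM + 1), with 1 mean per genotype and day, eBayes with a mean trend and Benjamini-Hochberg adjustment over all tested genes. The script was tested on simulated data.

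GENCODE M21 (GRCm38), to which 96.6% of transcripts could be matched, gave coordinates and shared 31-base words, and RefSeq gave promoter windows. Older symbols were matched through gene identifiers. Named are Thap1, 10 lineage and lysosome genes, the 15 largest rises and falls, up to 5 called genes of each of 37 lists (or the member with the lowest adjusted p), the 8 genes with the widest control range, and the leading genes of the test between days. Members and lists were chosen with earlier results of these data known. Some genes that the rule takes are not reported here. Genes named outside this rule were chosen after their values were seen. Libraries of the same clone deviated together on day 2 and day 4 (correlations 0.22 to 0.66). Different clones of a genotype gave -0.57 to 0.32. The clone names thus pair libraries across days within a genotype, and correlations across genotypes were not computed.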

Additional observations from a re-analysis of the deposited data

Results flagged for a closer look

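Hist1h2ae was flagged because its genotype difference at day 4 differed from that at day 2, by -2.77 on the log2(rescaled TPM + 1) scale (limma interaction, adjusted p = 0.0027). It was lower in all 3 null clones than in all 3 controls at day 4 and higher at day 2, and its sequence is shared with other histone genes. A fit with clones as fixed replicate block called no gene in that test.

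A Thap1 transcript outside the coding measure was flagged as a signal in values the comparisons did not use. The retained-intron transcript of Thap1, which the protein-coding sum leaves out, measured 5.63, 3.59 and 4.23 rescaled TPM in control D7, D3 and E8 and 6.93, 12.2 and 10.1 in null 3F, D6 and 7F, a ratio of null to control means of 2.17 (exact two-sided permutation test, p = 0.1, the smallest possible). It was higher in every null clone than in every control, while the coding transcripts were lower in every null clone.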

How the results depend on the processing

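The count of 980 changed genes became 343 in the deposited TPM, 164 in the 6 libraries alone, 614 with all 18 libraries and 387 with a log2 change of at least 1. Leaving out each clone gave 142 to 1882. Treating clones as a random replicate block gave 1013 and changed it by less than 1.5 times. The count of 1 for the difference between days became 0 in the deposited TPM, 0 for clones as a fixed replicate block and 23 with the random replicate block, which was added after seeing the data, and leaving out each clone gave 0 to 1. In the 6 libraries the lists gave 0 (myelin), 9 (cholesterol), 2 (p53), 0 (stress response) and 3 (matrix) called genes. In the deposited TPM they gave 2 (p53) and 0 (stress response). Leaving out each clone gave 0 to 6 myelin genes, 6 to 23 cholesterol genes, 2 to 12 p53 genes, 0 to 11 stress genes and 3 to 6 matrix genes. Of 102 called genes among those named, 37 remained called in the 6 libraries, 57 in the deposited TPM, 86 with 18 libraries and 92 with a pseudocount of 0.1. Of them 1 changed sign, Thap1 with all biotypes summed (0.24, adjusted p = 0.5), which adds the retained-intron transcript. Among genes not called, the change took both signs when each clone was left out, from -0.41 to 0.16 for Sox10, -0.10 to 0.70 for Cspg4, -0.69 to 3.33 for Gfap, -2.86 to 0.52 for Mt3, -1.54 to 1.79 for Clu, -0.94 to 2.31 for Sparcl1, -2.95 to 0.19 for Stom and -2.95 to 0.15 for Slc1a3, with control D7 or E8 absent at the ends (control D3 for the highest of Stom). The causes were not tested. Clones differ in chromosome 11 level, astrocyte RNA and composition, and 3 per genotype without depth limit what can be told.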

Other observations

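Families taken by gene name after the values were seen add to the lists, as descriptions with no test of the family. Of 64 tested clustered histone genes 36 fell at day 4 and none rose, against 3.94% of all genes falling, with a median change of -1.17. At day 2 2 rose and none fell, with a median of 0.30. Only 5 of the 64 are of unique sequence, and 3 of these fell, the linker histone genes Hist1h1a (-1.94), Hist1h1b (-2.61) and Hist1h1d (-1.28). Hist1h1b measured 23.8, 26.4 and 52.2 rescaled TPM in control D7, D3 and E8 and 1.81, 5.73 and 7.34 in null 3F, D6 and 7F. In the 6 libraries alone 13 fell.

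Some genes of the protein synthesis machinery rose. Of 20 cytosolic aminoacyl-tRNA synthetase genes 7 rose and none fell, against 5.04% of all genes rising (median change 0.68). Rars, the arginine enzyme, measured 31.04, 41.2 and 30.1 in the controls and 82.2, 88.4 and 108 in the null clones (change 1.42), and lies on chromosome 11. Of 54 ribosome biogenesis genes 21 rose and none fell, against the same 5.04% (median change 0.42). Nol11, Tsr1 and Utp18, among the biogenesis genes that rose, also lie on chromosome 11. In the deposited TPM no gene of either list rose. Without null 7F no synthetase gene and 1 biogenesis gene rose, without null 3F 1 and 3, and in the 6 libraries alone 1 and 0. Control D7 had the lowest summed level of synthetase genes (551 rescaled TPM, against 701 in E8, 967 in D3 and 1150 to 1191 in the null clones).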
